A study of Homo sapiens with 4 samples.

Results

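The Luc library is the poly(A) RNA profile of MKN28 control cells, taken from the gene FPKM table by the Luc column alone, and it was 1 of 4 libraries in the experiment. MKN28 is a human cell line labelled as gastric adenocarcinoma. The other 3 libraries were labelled as MKN28 cells with KIAA1324 WT, 3NQ or ΔTM, although KIAA1324 was listed at 0 in the library labelled ΔTM, below its 2.86 in Luc. The Luc cells were made like the other cells of the study, with a doxycycline-dependent tet-on construct brought in by a retrovirus. Luc is luciferase, which stood in the place of KIAA1324 as the general control of the paper. By the labels and methods all 4 groups carried a construct, and no uninfected MKN28 library was analysed here. Neither the use of doxycycline in the cells that gave the RNA, nor whether they were 1 clone, is stated. The table gave an FPKM (fragments per kilobase of transcript, scaled to the number of mapped fragments, so that levels of different genes are compared per length) for 23362 entries, all of which had a value in Luc. These held 23196 gene symbols, since 166 entries repeated a symbol, and the entry with the highest FPKM in Luc was used for each. With 1 library there was no replicate, so that every value below is a single estimate without an error, and no test was made.

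MKN28 appears on public registers of misidentified lines as a derivative of MKN74, another gastric line. Epithelial cells are held together by E-cadherin at adherens junctions, by claudins and occludin at tight junctions and by desmosomal cadherins, and their cytoplasm is braced by pairs of keratins. In the stomach and intestine, this common program is overlaid by lineage factors such as CDX2, HNF4A, GATA4, GATA6 and SOX2, and by secreted products such as mucins, trefoil peptides and digestive enzymes. The library was read along these layers, first the most abundant RNAs, then the epithelial and gut programs, then the receptors, and last the genes at or near 0.

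Of the 23196 symbols, 11372 had an FPKM of at least 1, which is 49.0%, and 6787 were listed at 0, which is 29.3%. The other 5037 lay between these levels. The median FPKM was 0.812 over all symbols and 17.3 over those at 1 or more, whose middle 50 percent lay between 6.40 and 41.0. Levels of at least 100 were reached by 1053 symbols and levels of at least 1000 by 50. The 10 highest entries held 8.37% of the summed FPKM of 575125, the 100 highest 26.2% and the 1000 highest 58.9%. The table held 0 mitochondrially encoded entries, so that this share of the RNA was not seen.

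**Figure D1:**
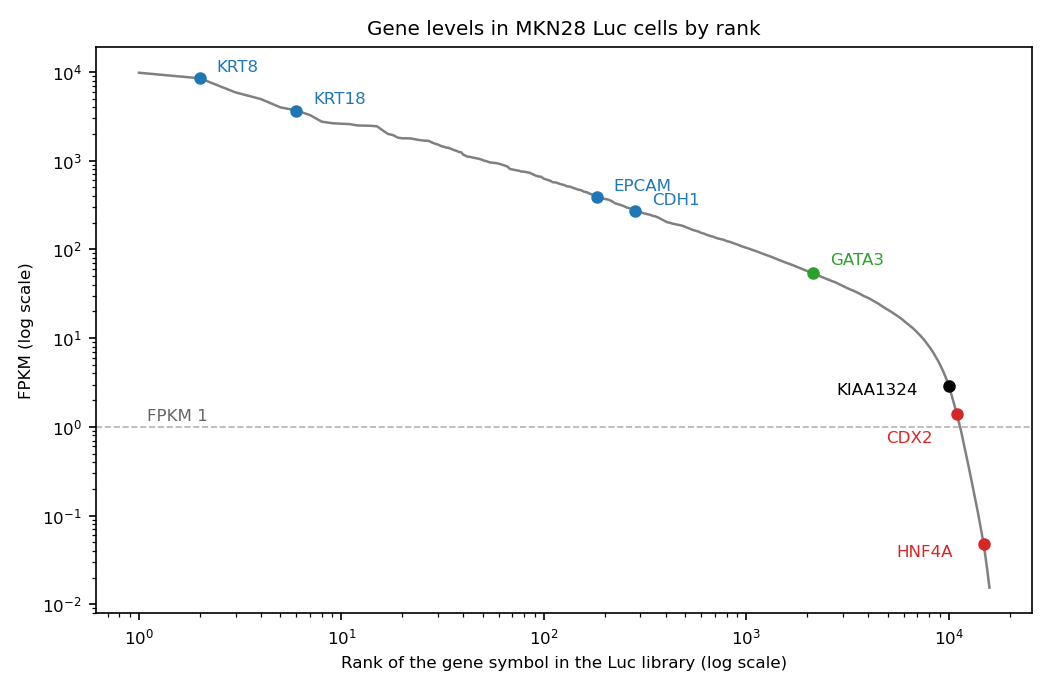
FPKM (vertical, log scale) against the rank of each gene symbol (horizontal, log scale) in the Luc library. The line joins the symbols above 0 and the dots mark epithelial genes (blue), GATA3 (green), KIAA1324 (black) and gut factors (red). KRT8 at 8501 and KRT18 at 3684 sit at ranks 2 and 6, whereas HNF4A at 0.0475 lies below the dashed line at 1.

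The most abundant RNAs were those of the epithelial cytoskeleton and of protein synthesis. KRT8 (8501) and KRT18 (3684) encode the keratin pair of simple epithelia. EEF1A1 (4960), which brings aminoacyl-tRNA to the ribosome, ANXA2 (3996), a calcium-dependent membrane-binding protein, and B2M (2758), the light chain of MHC class I, stood beside them. PPIA (2650), a prolyl isomerase, ENO1 (2612), a glycolytic enzyme, RPS3 (2589), a ribosomal protein, ACTB (2499), the cytoplasmic actin, and HSPA8 (2478), the constitutive heat shock cognate, followed. GAPDH (2198) and PKM (1719), both glycolytic, ACTG1 (1945), the other cytoplasmic actin, YWHAZ (1696), a 14-3-3 protein, PTMA (1676), prothymosin alpha, and TMSB10 (1558), an actin-binding peptide, were also among the 30 highest. A further 10 of them encoded cytosolic ribosomal proteins, from RPL4 at 2490 and RPL41 at 2443 to RPL30 at 1520.

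Of these 30 entries, 4 held, or were, a transcript of under 200 bases, so that their levels may not be those of a whole gene. IMMP1L (9820), SVIL (5895), AC025262.1 (3267) and AL109927.1 (1783) had a shortest transcript or entry of 122, 190, 141 and 171 bases, in that order, against the 350 to 450 bp of the sequenced library fragments. IMMP1L, an inner mitochondrial membrane protease subunit, was at 18.2 to 22515 in the other 3 libraries, AC025262.1 at 0 to 4270, SVIL at 3973 to 8496 and AL109927.1 at 523 to 913. KRT8, PTMA and 5 of the ribosomal protein genes named or counted above also have an annotated transcript of under 350 bases, of 250 in KRT8, where the other libraries were at 4510 to 6912. The KRT8 and KRT18 entries overlap on chromosome 12 of GRCh37, KRT8 from 53290977 to 53343738 on the minus strand and KRT18 from 53342655 to 53346685 on the plus strand. Whether the library kit marked the strand is not stated, so that RNA from the shared stretch cannot be told apart.

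The other libraries served as a check of single values in Luc. Of the 1053 symbols at 100 or more, 8 were over 3 times their highest level elsewhere and 0 were over 3 times lower than their lowest. These 8 were RAPGEF6 (1081), TGFA (1071), EFTUD1 (780), PTPN12 (734), AC007382.1 (368), FOXO1 (359), RP11-193F5.1 (198) and HDAC11 (167). FOXO1, a forkhead factor, was at 1.28 to 1.41 elsewhere and RAPGEF6 at 5.99 to 7.18. All of these 8 but AC007382.1, which had no annotated length, have an annotated transcript of 200 bases or less. With 1 library each, a difference between the cells and a failed estimate cannot be told apart. Of the 11824 symbols below 1 in Luc, 97.0% were below 1 in all 4 libraries and 12 reached 5 in another one.

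A listed 0 need not be an absent RNA. Of 291 genes of the ribosome, translation, respiratory chain, proteasome, TRiC chaperonin, RNA polymerase II and spliceosome, 9 were listed at 0 and 4 others lay below 1. Most were forms used in other tissues or pseudogenes, namely ATP5L2, COX4I2, COX5BP2, COX6A2, COX7A1, COX8C, PSMA8 and PSMB11, all listed at 0. EIF3C, a subunit of an initiation factor that every cell needs, was however listed at 0, and its near-identical copy EIF3CL, chosen after its value was seen, was at 0.0400. Levels of genes with a near-identical copy are therefore uncertain here, and a gene at 0 is described as listed at 0.

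The deposited values hold no read counts. The 306 intronless olfactory receptor entries of under 1100 bases gave a hint of the depth, since 271 were listed at 0 and 31 of the other 35 fell in a narrow band, at 0.0602 to 0.0882 FPKM times kilobases, with the next value at 0.160. If that band is 1 fragment, 1 FPKM over 1 kb stands for about 13.2 fragments, and 3 fragments over 1 kb give an FPKM of 0.228. On that reading, which was not tested, HNF4A at 0.0475 rests on about 2.97 fragments and CDX2 at 1.40 on about 63.4. Levels below about 0.1 are therefore given as values, and no order is read among them.

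The 6 markers of the labelled cell type fell into separate ranges. The 4 epithelial markers were high, with KRT8 at 8501, KRT18 at 3684, EPCAM (an epithelial adhesion molecule) at 391 and CDH1 (E-cadherin) at 272, so that EPCAM stood above 99.2% and CDH1 above 98.8% of all symbols. The gut markers were not. CDX2, the intestinal homeobox factor, was at 1.40, above 52.8% of symbols, and HNF4A, the nuclear receptor of gut and liver epithelium, was at 0.0475. The cells thus carried the epithelial part of their label, while the gut part was low in CDX2 and near 0 in HNF4A.

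To show the regulatory sequence next to these extremes, the start regions of the 3 markers that matched the RefSeq promoter table (GRCh38.p14, 250 bases before to 50 after 1 start per gene), and of GATA3, HK2 and LDHB, described below and chosen after their values were seen, are printed 5′ to 3′ with each CG in capitals. CDH1, EPCAM and KRT18 had no entry. The RefSeq start of a gene need not be the start of its entry in the FPKM table, and the builds differ, so that the starts were not compared.
KRT8, chr12:52926420-52926719, minus strand: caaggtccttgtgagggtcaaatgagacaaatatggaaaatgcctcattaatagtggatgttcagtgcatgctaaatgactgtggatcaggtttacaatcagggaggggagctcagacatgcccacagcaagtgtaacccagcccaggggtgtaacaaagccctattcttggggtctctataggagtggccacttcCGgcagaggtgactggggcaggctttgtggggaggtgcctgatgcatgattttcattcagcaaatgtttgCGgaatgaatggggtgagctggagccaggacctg
HNF4A, chr20:44355449-44355748, plus strand: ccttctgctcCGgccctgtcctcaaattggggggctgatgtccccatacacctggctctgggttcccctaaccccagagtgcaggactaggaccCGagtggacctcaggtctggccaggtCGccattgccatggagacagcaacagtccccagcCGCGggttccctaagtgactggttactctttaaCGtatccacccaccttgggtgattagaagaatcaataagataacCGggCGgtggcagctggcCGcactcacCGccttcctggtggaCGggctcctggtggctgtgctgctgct
CDX2, chr13:27969266-27969565, minus strand: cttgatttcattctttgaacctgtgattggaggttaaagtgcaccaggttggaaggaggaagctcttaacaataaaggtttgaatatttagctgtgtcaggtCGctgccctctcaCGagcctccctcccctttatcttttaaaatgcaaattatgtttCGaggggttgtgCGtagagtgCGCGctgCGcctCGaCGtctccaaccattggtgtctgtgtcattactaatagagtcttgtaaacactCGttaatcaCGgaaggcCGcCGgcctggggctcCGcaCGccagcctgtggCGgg
GATA3, chr10:8045083-8045382, plus strand: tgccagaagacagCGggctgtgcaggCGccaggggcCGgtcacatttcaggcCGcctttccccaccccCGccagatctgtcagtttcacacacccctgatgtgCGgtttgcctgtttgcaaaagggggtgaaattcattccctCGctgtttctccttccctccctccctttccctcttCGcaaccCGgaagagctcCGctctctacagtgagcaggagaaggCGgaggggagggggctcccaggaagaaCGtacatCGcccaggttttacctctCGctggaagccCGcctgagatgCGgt
HK2, chr2:74833877-74834176, plus strand: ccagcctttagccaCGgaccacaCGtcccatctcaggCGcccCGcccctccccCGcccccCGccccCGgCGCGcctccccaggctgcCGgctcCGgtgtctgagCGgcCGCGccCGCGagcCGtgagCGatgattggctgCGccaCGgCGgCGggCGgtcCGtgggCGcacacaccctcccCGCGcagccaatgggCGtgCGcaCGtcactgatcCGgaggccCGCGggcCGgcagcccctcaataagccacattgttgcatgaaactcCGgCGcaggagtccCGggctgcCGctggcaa
LDHB, chr12:21657793-21658092, minus strand: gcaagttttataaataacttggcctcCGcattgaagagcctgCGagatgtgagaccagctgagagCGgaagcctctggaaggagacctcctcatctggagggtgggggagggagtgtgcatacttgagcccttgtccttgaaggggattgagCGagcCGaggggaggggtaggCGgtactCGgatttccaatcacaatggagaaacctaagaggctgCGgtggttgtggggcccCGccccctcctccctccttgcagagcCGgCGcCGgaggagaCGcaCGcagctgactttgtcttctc

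The KRT8 window held 2 CG, while 18.2% of the 35114 promoters of the table held no more than that. HNF4A held 11, LDHB 14, and CDX2 and GATA3 16 each, around the table's median of 14. HK2, at an FPKM of 0.0666, held 38 CG, a number reached by 9.90% of promoters. CDX2 and HK2 met the usual definition of CpG richness (an observed to expected CG ratio of at least 0.6 and at least 50% G and C), which 46.9% of all promoters met, and the other 4 did not. None of the 6 had TATAAA on the sense strand starting 45 to 20 bases before the start, which 2.39% of promoters had. GGGCGG, on either strand, occurred in HNF4A, LDHB and HK2 and in 45% of promoters, and CCAAT, on either strand, occurred in HNF4A, CDX2, LDHB and HK2 and in 34.6%. These 6 genes were picked by name or by level, so that nothing on CG density and RNA level can be read from them. Only 61.2% of all symbols matched the table, under the 80% needed, so that a description of promoters by level over the whole library is void.

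The keratins were held by few members. Of the 7 keratins of simple epithelia, 5 were at 1 or more (71.4% against 49.0% of all symbols). KRT19 was at 601, KRT7 at 180 and KRT80 at 71.8, after the leading pair. KRT20, the keratin of differentiated gut epithelium, was at 0.0448 and KRT23 was listed at 0. Of 11 stratified and basal keratins, 8 were at 1 or more (72.7%), with KRT17 at 126, KRT16 at 17.5 and KRT5 at 3.57 as examples. Over all 55 keratins, 14 were at 1 or more (25.5% against 49.0% of all symbols) and 27 were listed at 0 (49.1% against 29.3%). KRT8 and KRT18 together made 91.5% of the summed FPKM of these keratins.

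Adherens and tight junction genes were all at 1 or more, while claudins and desmosomal genes were so in part. All 10 adherens junction genes were above 1, with a median of 136 against 0.812 over all symbols. JUP (plakoglobin) was at 367, CTNNA1 (alpha-catenin) at 295, CTNND1 (p120 catenin) at 193 and CTNNB1 (beta-catenin) at 183. All 13 tight junction genes were above 1 too, with TJP1 at 132, F11R (an adhesion molecule of the junction) at 88.3 and OCLN (occludin) at 47.8. Of 23 claudins, the strand-forming proteins, 7 were at 1 or more (30.4% against 49.0% of all symbols), led by CLDN7 at 281 and CLDN4 at 189. Listed at 0 were 9 claudins (39.1% against 29.3%), among them CLDN18, the claudin of gastric epithelium. Of 12 desmosomal genes, 7 were at 1 or more (58.3%), including PERP at 504, PKP3 at 88.6, DSP (desmoplakin) at 70.0 and DSG2 at 45.2. The skin forms DSG1 (0.0288) and DSG3 (0.0180) were near 0, and DSC1 and DSC3 were listed at 0.

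Regulators of the epithelial state were present and mesenchymal genes mostly were not. Of 18 epithelial regulators and surface proteins, 17 were at 1 or more, with a median of 76.3. The protease inhibitors SPINT2 (465) and SPINT1 (362) and their target protease ST14 (229), the ETS factor EHF (184), the splicing factors ESRP1 (144) and ESRP2 (43.6) and the grainyhead factor GRHL2 (65.4) were among them, and TP63, the basal cell factor, was at 0.118. Of 17 mesenchymal genes and inducers of the epithelial to mesenchymal transition, 4 were at 1 or more (23.5% against 49.0% of all symbols). These were S100A4 at 61.3, FN1 (fibronectin) at 17.7, SNAI1 at 1.72 and TAGLN at 1.38. The intermediate filament VIM was at 0.0937, ZEB1 at 0.167 and CDH2 (N-cadherin) at 0.0129, while ZEB2 and TWIST2 were listed at 0. Of 23 cadherins, 3 were at 1 or more, and CDH1 with CDH3 (P-cadherin, 94.1) made 97.9% of their summed FPKM.

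Cell adhesion to the matrix followed the same concentration on few members. ITGA6 (133), ITGA3 (87.2) and ITGA2 (50.8) led the 18 alpha integrins, of which 6 were at 1 or more (33.3% against 49.0% of all symbols). ITGB1 (421), ITGB5 (248) and ITGB4 (145) led the 8 beta integrins, of which 4 were (50%). ITGA6 and ITGB4 form the laminin receptor of hemidesmosomes. Among laminin chains, a list added after values were seen, 9 of 12 were at 1 or more, among them LAMC1 at 133 and LAMB1 at 63.7.

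**Figure D2:**
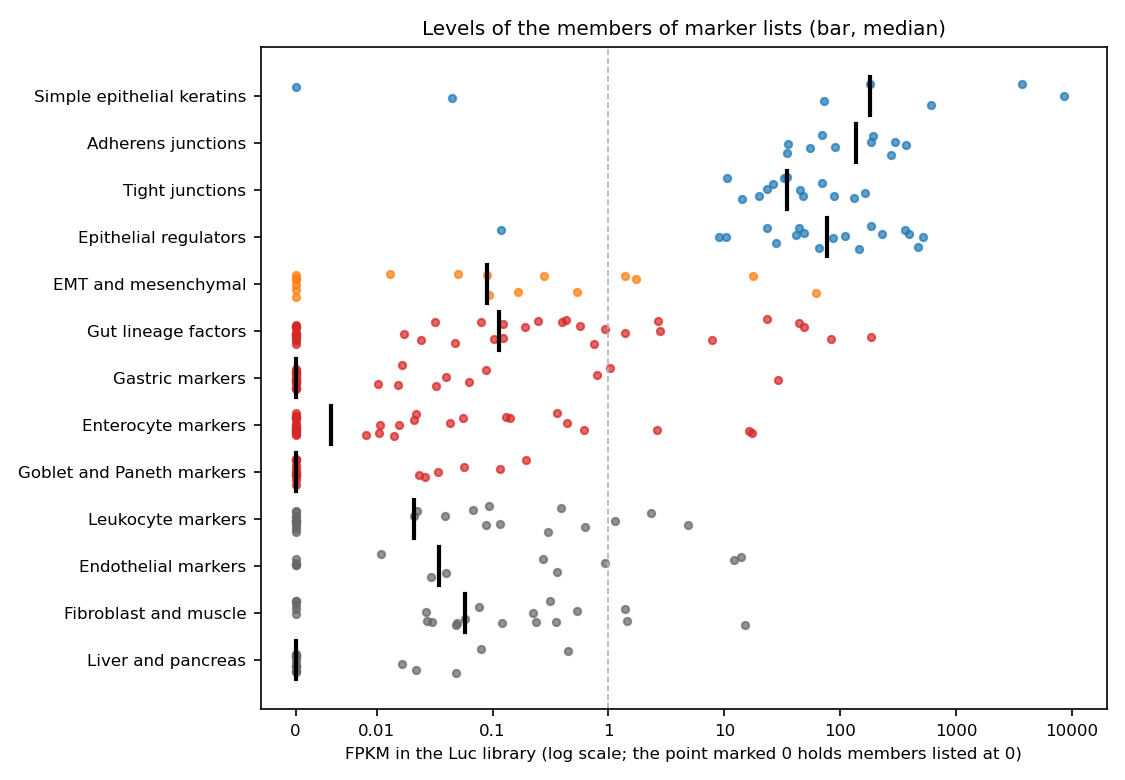
Each dot is the FPKM (log scale) of 1 member of a list in the Luc library, the black bar is the list's median and the dashed line is an FPKM of 1. Epithelial lists are blue, mesenchymal genes orange, gut lists red and markers of other cell types grey. All adherens and tight junction genes sit above 1, whereas the medians of the gastric list and of the goblet and Paneth list are 0.

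The gut lineage factors were the weaker layer. Of 36 such factors, 9 were at 1 or more (25% against 49.0% of all symbols), 12 were listed at 0, and the median was 0.113. The highest were factors that many epithelia share. These were EHF (184), XBP1 (83.5), which drives secretory capacity, KLF5 (48.3), KLF4 (44.1) and ELF3 (23.4). The pioneer factor FOXA1 was at 2.78 and TFCP2L1 at 2.68. Factors that define stomach and intestine lay below. GATA6 was at 0.932, FOXA2 at 0.191, CDX1 at 0.0242 and SOX2, the factor of the foregut, at 0.0172, and GATA4, SOX9, ATOH1 and BARX1 were listed at 0.

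Differentiation products of the gut were nearly all below 1. Of 26 gastric markers, 2 were at 1 or more, PSCA (a surface antigen) at 28.9 and GAST (gastrin) at 1.02, and 16 were listed at 0, among them TFF1, TFF2, GKN1, GKN2, LIPF and CLDN18. The gastric mucins MUC5AC and MUC6 were at 0.0103 and 0.0152. Of 34 enterocyte markers, 3 were at 1 or more, EPS8 (an actin regulator of microvilli) at 17.5, DPP4 (a surface peptidase) at 16.2 and CA2 (carbonic anhydrase) at 2.62, whereas VIL1 (villin), CDH17, FABP1 and SI were listed at 0. Of 18 goblet and Paneth cell markers, 0 were at 1 or more, and MUC2 was at 0.0566. Together, 5 of the 78 gut markers were at 1 or more, which is 6.41% against 49.0% of all symbols, and 45 were listed at 0, which is 57.7% against 29.3%. In every one of the 4 libraries, 71 of them were below 1.

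Mucins and hormone genes were likewise low. Of 16 mucins, MUC1 (12.7), the transmembrane mucin of many epithelia, and MUC20 (1.30) were at 1 or more. Of 16 enteroendocrine and tuft cell markers, DCLK1 was at 10.5 and AVIL at 1.84, and the rest, including CHGA (0.0414), lay below 1. The mucins and these markers thus each had 12.5% of members at 1 or more, against 49.0% of all symbols. Of 19 stem cell and Wnt feedback genes, 12 were at 1 or more, which is 63.2% against 49.0% of all symbols. The receptor LGR4 (47.6), the ubiquitin ligases ZNRF3 (38.1) and RNF43 (17.9) that remove Wnt receptors, the feedback gene AXIN2 (17.7) and MYC (72.3) were among them, as were the ephrin receptors EPHB2 (21.0) and EPHB3 (9.85), the Polycomb protein BMI1 (20.5), TNFRSF19 (8.41), NOTUM (3.27), NKD1 (1.82) and ASCL2 (1.14). Below 1 were CD44 (0.925), LGR6 (0.334), LGR5 (0.149), LRIG1 (0.116) and SMOC2 (0.0133), and OLFM4 and PROM1 were listed at 0.

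Some genes that mark other epithelia were higher than CDX2 and HNF4A. Of the 19 markers of lung, breast, prostate, kidney and urothelium, 4 were at 1 or more (21.1% against 49.0% of all symbols). Listed at 0 were 11 of them (57.9% against 29.3%). GATA3, a factor of breast, urothelial and trophoblast epithelium, was at 53.6, above 90.8% of symbols. The urothelial plaque proteins UPK1B and UPK2 were at 24.4 and 9.73. The lung surfactant genes SFTPA1 and SFTPB were at 0.0464 each, and NKX2-1, PAX8, KLK3 and SCGB2A2 were listed at 0. After these values were seen, related families were listed. Of the GATA factors, GATA3 and GATA2 (22.9) were at 1 or more, with GATA1, GATA4 and GATA5 listed at 0. Of 5 uroplakins, UPK1B, UPK3B (10.7) and UPK2 were at 1 or more, UPK1A was at 0.220 and UPK3A was listed at 0. Of 5 TFAP2 factors, TFAP2C (51.8) and TFAP2A (33.6) were at 1 or more. The TEAD cofactor VGLL1 was at 129 with TEAD1 at 93.3, and the COUP transcription factor NR2F2 was at 329. Of the growth-related HMGA and IGF2BP genes, HMGA1 was at 419, IGF2BP2 at 165, IGF2BP3 at 132 and HMGA2 at 46.5. Since these families were chosen for their levels, they describe the library and support no tissue of origin.

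Fewer of the markers of other cell types were at 1 or more than the 49.0% of all symbols. The shares were 12% for leukocyte, 16.7% for endothelial, 14.3% for fibroblast and muscle, 31.25% for neural and 0% for liver and pancreas markers. The library came from a cultured line after G418 and puromycin selection, not from a tissue. Its values are averages over the cells, so that differences between cells of the line were not seen. Of 25 leukocyte markers, CD68 (4.85), LCP1 (2.34) and CD74 (1.13) were at 1 or more, PTPRC (CD45) was at 0.115 and the T cell receptor chains CD3D, CD3E and CD3G were listed at 0. Of 12 endothelial markers, EGFL7 (13.9) and ESAM (12) were at 1 or more, CDH5 was at 0.0393 and KDR was listed at 0. Of 21 fibroblast and muscle markers, COL1A1 (15.1), TNNT2 (1.44) and TAGLN (1.38) were at 1 or more, while the partner collagen chain COL1A2 was at 0.222 and DCN at 0.0492. Of 16 neural markers, TUBB3 (20.1), SYT1 (15.9), MBP (15.4), MAP2 (11.2) and GAD1 (1.69) were at 1 or more, and RBFOX3 was at 0.0539. None of the 17 liver and pancreas markers reached 1, with SERPINA1 highest at 0.448 and ALB at 0.0219.

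Receptor tyrosine kinases read growth factors at the cell surface, and the study's protein KIAA1324 is itself a transmembrane protein. Of 58 receptor tyrosine kinases, 28 were at 1 or more (48.3% against 49.0% of all symbols) and 13 were listed at 0. The highest were the collagen receptor DDR1 (127), the ephrin receptor EPHA2 (118), the HGF receptor MET (90.9), the Wnt coreceptor RYK (81.8), ERBB3 (74.8), EGFR (62.9), ERBB2 (59.5) and IGF1R (34.1). Thus 3 of the 4 ERBB receptors lay within 59.5 to 74.8, and ERBB4 was listed at 0. INSR, the insulin receptor, was at 1.87 against 34.1 for IGF1R. Receptors of other lineages, KIT, FLT3, KDR and PDGFRB, were listed at 0, and FGFR1 was at 0.0529.

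**Figure D3:**
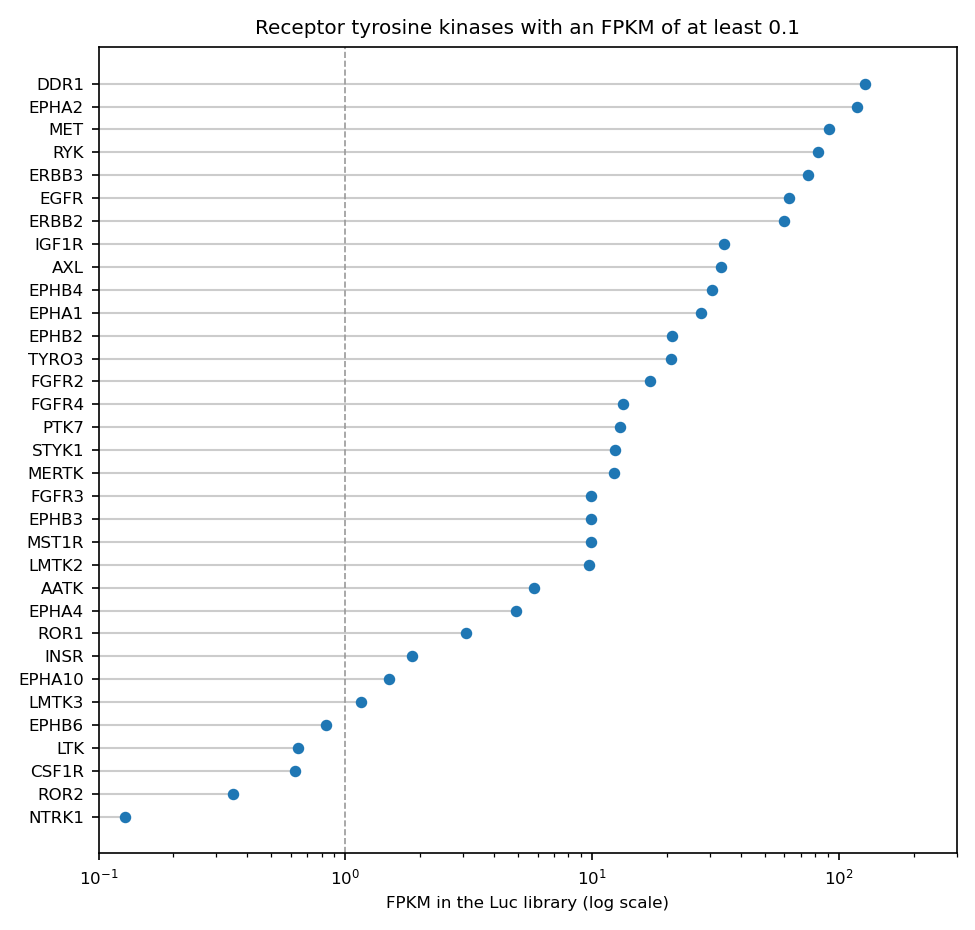
FPKM (log scale) of the receptor tyrosine kinases at 0.1 or more in the Luc library, in order of level, with the dashed line at 1. DDR1 at 127 and EPHA2 at 118 lead, and the ERBB receptors follow at 59.5 to 74.8.

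Of 54 ligands of these receptors, 24 were at 1 or more (44.4% against 49.0% of all symbols). TGFA, an EGFR ligand, was the highest at 1071, but it was at 91.9 to 126 in the other 3 libraries and has an annotated transcript of 147 bases, so that its level in Luc is uncertain. VEGFA was at 45.8, the EGFR ligands HBEGF and AREG at 36.7 and 13.1, PDGFB at 23.2, VEGFB at 17.8, EFNA1 at 14.4 and PROS1, which binds the TAM receptors, at 13.6. For some receptors the ligand was low. HGF, IGF1, NRG1 and EGF, chosen after their values were seen, were at 0.0197, listed at 0, 0.0261 and 0.350 in the same cells as MET, IGF1R, ERBB3 and EGFR, while IGF2, chosen likewise, was at 7.12.

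For receptors of other signals, the share of members at 1 or more is given beside the 49.0% of all symbols. The Notch, TNF and cytokine families lay near that share. Of 15 TGF-beta family receptors, 12 (80%) were at 1 or more, with TGFBR3 at 46.9, ACVR1B at 39.3, TGFBR2 at 36.3 and TGFBR1 at 10.6. Of 15 Wnt receptors, 10 (66.7%) were at 1 or more, led by FZD6 at 107 with LRP5 at 39.5. Of 9 Notch receptors and ligands, NOTCH3 (31.2), NOTCH2 (24.6), NOTCH1 (9.66), JAG2 (8.98) and JAG1 (1.85) were at 1 or more, which is 55.6%. Of 29 death and TNF family receptors, 14 (48.3%) were. The TWEAK receptor TNFRSF12A was at 160, LTBR at 86.8, TNFRSF21 at 82.1, TNFRSF1A at 62.1 and the TRAIL receptors TNFRSF10B and TNFRSF10A at 36.4 and 11.7. Of 48 cytokine and interferon receptors, 27 (56.25%) were at 1 or more, led by IL4R (69.2), IL10RB (54.3), IFNGR1 (45.1), IL6ST (45.1) and IFNAR1 (43.2). None of the 20 chemokine receptors reached 1, and CXCR4 was listed at 0.

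Among 48 nuclear receptors, 26 were at 1 or more (54.2% against 49.0% of all symbols). NR2F2 (329) was above the next, NR2F6 (57), RXRA (56.6), the general partner of many of them, NR1D2 (44.2) and ESRRA (35.7). PPARD and PPARG, receptors for fatty acids, were at 21.8 and 18.6. Of the steroid receptors, NR3C1, the glucocorticoid receptor, named after its value was seen, was at 14.4, while ESR1 (0.0798) and PGR (listed at 0) were low, as were the bile acid and xenobiotic receptors of liver and gut, NR1H4 and NR1I2 (both listed at 0).

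The genes of the study itself were present at baseline with some spread. KIAA1324 was at 2.86 in these control cells, above 56.8% of symbols, and its paralog KIAA1324L at 10.6. The endoplasmic reticulum proteins P4HB (protein disulfide isomerase) and HSPA5 (GRP78) were at 466 and 318. The kinases MAPK9 (JNK2) and MAPK8 (JNK1) were at 49.4 and 32.4, and MAPK10 (JNK3), the neural form, at 0.135. Of 13 fucosyltransferases, 9 were at 1 or more (69.2% against 49.0% of all symbols). Only 5 were at 5 or more, a level that 39.1% of all symbols reached. POFUT1 (49.0) and POFUT2 (28.2) add fucose to protein, FUT8 (27.6) to the core of N-glycans and FUT3 (16.1) to Lewis antigens, and FUT5 and FUT7 were listed at 0.

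In several gene families 1 or 2 members made nearly all of the RNA. ACTB and ACTG1 made 99.98% of the summed FPKM of 6 actins, ANXA2 79.2% of 12 annexins, LGALS1 (713) 79.2% of 15 galectins and MT2A (135) 83.5% of 12 metallothioneins. S100A11 (1255) led the 20 S100 proteins with 42.6%, while S100A10, which pairs with ANXA2, was at 396. The tubulins were led by TUBB4B (446) and TUBB6 (272), a family with near-identical copies whose split is uncertain. Among 34 glycolytic genes and transporters, ENO1, GAPDH, PKM, LDHA (949), ALDOA (808), the glucose transporters SLC2A1 (669) and SLC2A3 (571) and TPI1 (387) were the highest. A sharp choice between paralogs, picked after its values were seen, was LDHA over LDHB (0.0402), the subunits of lactate dehydrogenase, and HK1 (92.6) over HK2 (0.0666), the hexokinases. HK2 was the gene with the CG-dense window printed above.

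**Figure D4:**
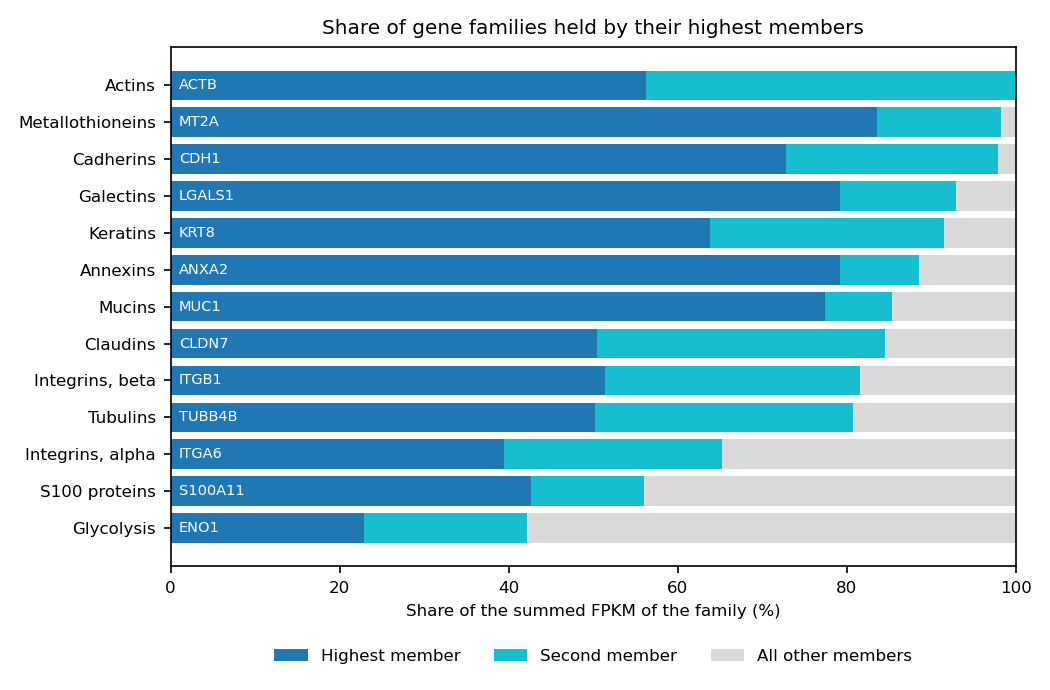
Share of each family's summed FPKM (percent, horizontal) held by its highest member (dark blue, named), the second (light blue) and all others (grey) in the Luc library. The 2 leading actins hold 99.98%, whereas ENO1 and GAPDH hold 42.1% of the glycolytic list.

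The cells carried the RNA of dividing cells. Of 24 proliferation genes, 23 were at 1 or more, with PCNA at 284, the cyclins CCND1, CCNB1 and CCND3 at 281, 238 and 152, MCM4 at 151, AURKA at 145, TOP2A at 141 and CDK1 at 138. The median was 90.9 against 0.812 over all symbols. Ribosomal protein genes were a larger share, since 79 of them held 11.1% of the summed FPKM with a median of 663. Of 89 histone entries, 27 were at 1 or more, and the highest were H3F3B (610), H2AFZ (535), H1F0 (334) and H3F3A (188), variants whose RNA is polyadenylated, in a library enriched for poly(A) RNA.

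Antigen presentation was uneven. B2M was at 2758, HLA-C at 164, HLA-B at 69.4 and HLA-E at 56.3, and the peptide transporter subunits TAP2 and TAP1 at 45.3 and 22.6. The immunoproteasome genes PSMB10, PSMB9 and PSMB8 were at 18.4, 5.49 and 0.246. HLA genes share sequence and differ between people, so that a level read against a single reference is uncertain for each of them. Of 13 MHC class II genes, HLA-DRB1 (13.2), HLA-DMA (6.13) and CD74 (1.13) were at 1 or more, and the transactivator CIITA was at 0.0125.

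HOX genes, which record position along the body axis, were mostly below 1. Of 39, 7 were at 1 or more (17.9% against 49.0% of all symbols) and 16 were listed at 0 (41.0% against 29.3%). HOXB7 was the highest at 20.2, with its neighbours HOXB9 at 3.08 and HOXB8 at 1.24, while HOXB1 to HOXB6 were listed at 0. HOXC10 was at 4.22, HOXC13 at 3.17 and HOXA3 at 1.66. None of the 9 HOXD genes reached 1.

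Genes that most somatic tissues keep silent were below 1 with few exceptions. Of 395 olfactory receptors, 344 were listed at 0 and 1, the pseudogene OR7E14P at 2.97, was at 1 or more. None of 27 taste receptors and none of 13 globins reached 1, and of 44 defensins only DEFB1 did, at 1.11. Of 93 keratin-associated proteins, KRTAP2-3 (25.3) and KRTAP2-1 (6.31) were at 1 or more. Cancer-testis genes, germline genes that tumours can switch on, were mostly low too, and the exceptions were single members. Of 100 such genes, 9 were at 1 or more (9% against 49.0% of all symbols) and 82 were listed at 0 (82% against 29.3%). MAGEB2 was at 62.0, PRAME at 45.5, MAGEA1 at 40.7, MAGEA12 at 37.6 and MAGEA3 at 14.5. MAGEA2B (5.04), MAGEA6 (4.24) and XAGE3 (1.55) followed, and the split among these near-identical MAGEA copies is uncertain. Of 27 matrix metalloproteases and inhibitors, 5 were at 1 or more, the inhibitors TIMP2 (195), TIMP1 (59.5) and TIMP4 (2.00) and the membrane-bound proteases MMP14 (75.5) and MMP15 (11.1).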

How the data were processed

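Poly(A) RNA of MKN28 Luc cells was sequenced as 1 library. Per the labels and the methods of the study, the authors aligned reads to GRCh37 by TopHat and ran Cufflinks 2.1.1 on Ensembl genes, with non-coding regions masked and corrections for multi-mapping and fragment bias. The deposited unit is FPKM, with no counts. Transcript lengths came from GENCODE on GRCh37, for 96.4% of entries. Python 3.11.15, numpy 2.4.6, pandas 2.3.3 and matplotlib 3.10.9 were used, and the counting steps were tested on simulated data.

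An FPKM of 1 or more was counted as expressed. The markers and lists were written from general knowledge with earlier results of these data known, and the uroplakin, GATA, TFAP2, TEAD and VGLL, COUP-TF, HMGA and IGF2BP, laminin, Wnt ligand and SOX lists were added after values were seen. Of the added Wnt ligands 4 of 19, and of the SOX factors 3 of 19, were at 1 or more. Named genes were the 30 highest, all members of lists of up to 20, otherwise the 8 highest with defining receptors, gut genes and cell markers that were low, and housekeeping genes listed at 0. Others were chosen after their values were seen, and single values of some members are not reported here. Alternatives were other thresholds, summed repeats, entries left out, medians without zeros, a pseudocount of 0.1 and the lowest of the 4 libraries.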

Additional observations from a re-analysis of the deposited data

How the results depend on the processing

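No paired analysis was possible because the description rests on 1 library without a replicate. At a threshold of 10, 7428 symbols counted as expressed in place of 11372, whereas thresholds of 0.1, 0.5 and 5, summed repeats and every entry kept moved that number by less than 1.5 times. Of the 78 gastric, enterocyte, goblet and Paneth markers, 13 were at 0.1 or more and 3 at 5 or more, in place of 5 at 1 or more, and 4 were at 1 or more in the lowest of the 4 libraries, an alternative chosen after seeing the data. The share of the 10 highest entries was 8.40% without short or unannotated entries, 9.42% without ribosomal proteins and 8.44% without entries over 3 times the other libraries, the last also chosen after seeing the data. Of 72 lists, the number of expressed members moved by more than 1.5 times in 26 at a threshold of 0.1, in 16 at 5, in 6 with the lowest of the 4 libraries and in 0 with summed repeats. The list median moved in 43 lists without members listed at 0, and the mean of log2 values in 49 with a pseudocount of 0.1. The planned description of promoters in the top 10% of levels was not run, because too few symbols matched a promoter. Depth is not given, so that levels near 0 carry no interval.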
